A study of Mus musculus with 5 samples.

Results

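Nuclear genes for the subunits of the oxidative phosphorylation complexes were examined in cultured mouse Th2 cells by RNA Polymerase II ChIP-Seq. The members were chosen by label, as lines of the gene table whose gene name starts with Ndufa, Ndufb, Ndufc, Ndufs, Ndufv, Sdha to Sdhd, Uqcr, Cox4 to Cox8, Atp5 or Cyc1, leaving out names that start with Ndufaf. They were also selected on a measured value, since a line had to hold an enriched interval in the Parp14+/+ or the Parp14+/+ + PJ34 library. This gave 57 lines of 7971 lines that pass the same presence rule and of 11608 lines in all. Of the 57, 55 are subunits, with 18 in complex I, 3 in complex II, 8 in complex III, 12 in complex IV and 14 in complex V. The remaining members are no subunits, although their labels fit. Cox4nb is the gene now named Emc8, a part of the endoplasmic reticulum membrane complex, and Ndufa12l is Ndufaf2, an assembly factor of complex I. Ndufa4 was counted under its label in complex I, although the protein is now regarded as a subunit of complex IV.

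Oxidative phosphorylation takes place at the inner mitochondrial membrane. Complex I oxidises NADH, complex II oxidises succinate, complex III passes the electrons on to cytochrome c and complex IV hands them to oxygen. Complexes I, III and IV pump protons, and complex V, the ATP synthase, uses the gradient to make ATP. Most subunits are encoded in the nucleus, by many small genes spread over the chromosomes, and have to be made in matching amounts with the few subunits encoded in mitochondrial DNA. Activated T helper cells draw on both glycolysis and oxidative phosphorylation, and the nuclear factors NRF-1 and GABP are known to act at the promoters of many of these genes.

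Naive CD4+CD62L+ T cells came from the spleens of C57BL6 mice, were activated with anti-CD3 and anti-CD28 and were cultured with IL-4 (10 ng/ml) and anti-IFN-g for 3 days, then for 4 days with IL-2 and IL-4. The mice were Parp14+/+, or Parp14-/- on the same background and without PARP-14, an ADP-ribosyltransferase and cofactor of STAT6. Cells of each genotype were left untreated or were given PJ34, an inhibitor of ADP-ribosyltransferases, at 10 uM as the labels state it, so that the 4 conditions were Parp14+/+, Parp14+/+ + PJ34, Parp14-/- and Parp14-/- + PJ34. Each condition had 1 library, made with an antibody to RNA Polymerase II phosphorylated at serine 2, the form that elongates along genes, and no number of mice per library is given in the labels.

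The value of a line is its average peak height. It is the mean, over the active regions assigned to the gene, of the highest number of overlapping fragments in that library. An active region is a stretch with an enriched interval in any of the 8 libraries of the table, and all regions that touch the stretch from 2.5 kb upstream to 5 kb downstream of a gene count towards it. Heights are not divided by length and differ in how many regions they average, so they were compared between libraries and not between genes. The authors reduced every library to the same number of alignments, so depth was equal. Ratios were counted past 1.4 and 0.7, limits taken from the study, which also admitted smaller ratios by a rule on height that was not applied here. A ratio is given with its 95% exact binomial (Clopper-Pearson) interval, which treats the heights summed over the regions as counts and covers counting error only. With 1 library per condition no difference has a replicate check, and no p-value is given.

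The 4 libraries held an interval for 7109, 6978, 5757 and 5488 of the 7971 lines, in the order Parp14+/+, Parp14+/+ + PJ34, Parp14-/- and Parp14-/- + PJ34. The line of Parp14 itself had heights of 8, 11, 6.67 and 6.67 in that order, which does not check the deletion, since the labels do not give the deleted part of the locus. Th2 markers were present, with Gata3 at 60, 58, 45 and 43 and Il4 at 61, 39, 29 and 18. The values of Gata3 are also those of a neighbouring line. All 7 markers of T helper cells fixed for the check had an interval in both Parp14+/+ libraries. Il5, at 21, 21, 4 and 6, had none in either Parp14-/- library, and Cd4 had none in untreated Parp14-/-. Cd8a, Ms4a1 and Itgam had no interval and heights of 0 to 6. Cd79a, a B cell marker, stood at 38, 36, 34 and 28 with an interval in all libraries, on a region shared with a neighbouring gene. Csf1r, a myeloid marker, stood at 8, 8.5, 6 and 5.5, with an interval in all libraries but untreated Parp14-/-. Cd8b1, Lyz2, Ncr1 and Klrb1c were not found under their names. The part of other cells in the results below was not tested.

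The promoters of the members were read from the NCBIM37 assembly (mm9), from 250 bases before to 50 bases after the gene start. The NRF-1 core GCGCATGC, searched on both strands, occurred in 8 of 57 members (14%) and in 4.84% of the 7971 promoters of the same length. The 8 stretches are printed here because NRF-1 is the factor best known for this group of genes. Each is printed 5′ to 3′ on the strand of its gene with 9 flanking bases on either side, and capitals mark the match, which spans 10 bases where both strands match.

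Ndufa6, chr15:82184788-82184813 (minus strand): cgcggtagaGCATGCGCattgcagag
Ndufa11, chr17:56857116-56857143 (plus strand): ctgcactgcGCGCATGCGCgcacgcctt
Sdhb, chr4:140517123-140517148 (plus strand): gcccagtggGCATGCGCcctacgggc
Uqcr, chr10:79869554-79869579 (minus strand): cgccttcacGCATGCGCtatacgtct
Uqcrc1, chr9:108838682-108838709 (plus strand): ctccgctctGCGCATGCGCagcgcggct
Cox6a1, chr5:115799111-115799138 (minus strand): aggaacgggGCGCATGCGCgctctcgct
Atp5g2, chr15:102501502-102501529 (minus strand): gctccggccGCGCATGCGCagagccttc
Atp5k, chr5:108863450-108863477 (minus strand): ttcactgcgGCGCATGCGCctttctggc

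The match started 132 bases before the gene start in Ndufa6, 60 in Ndufa11, 54 in Sdhb, 4 in Uqcr, 165 in Cox6a1, 42 in Atp5g2 and 71 in Atp5k, and 30 bases after it in Uqcrc1. They were found at genes of all 5 complexes. None of these 8 genes had its start inside an enriched interval in any library, against 23 of all 57 members (40.4%), and 54.4% of the 386 promoters with the same core among all lines. The core of GABP and other ETS factors, CCGGAAG, was found in 17 members (29.8%; 18.6% of all promoters), the YY1 core AAGATGGC in 5 (8.77%; 6.02%) and the TATA box letters TATAAA in 5 (8.77%; 7.79%). The gene start lay in an interval for 7 of the 17 with the GABP core, 0 of the 5 with the YY1 core and 2 of the 5 with TATAAA. Among all lines with these letters the shares were 59.9%, 59.6% and 59.3%. The median number of CpG pairs in the window was 20 in members and 22 in all lines. These counts describe letters and not binding.

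Cox4i1, the ubiquitous form of subunit 4 of complex IV, and Cox4nb start back to back on chromosome 8 and share active regions. The whole stretch between their starts is 177 bases long. It is printed because signal in the shared regions counts towards both lines, with the match to the GABP core in capitals.

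Cox4nb to Cox4i1, chr8:123192013-123192189 (plus strand): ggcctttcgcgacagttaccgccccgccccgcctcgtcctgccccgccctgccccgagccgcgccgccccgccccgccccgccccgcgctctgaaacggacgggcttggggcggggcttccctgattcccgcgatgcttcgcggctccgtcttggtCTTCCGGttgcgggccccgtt

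The members were short genes. Their median length was 7430 bp, against 17957 bp over all 7971 lines, and they lay on 17 chromosomes. Their median height was 9 in both Parp14+/+ libraries and 8 in both Parp14-/- libraries. An interval was present for 50, 44, 34 and 29 of the 57 in the order given above. All 4 libraries held an interval for 23 members (40.4%, beside 58.7% of all lines), and neither Parp14-/- library held one for 19 (33.3%, beside 21.2% of all lines). The presence rule asked for a Parp14+/+ interval, so fewer intervals in Parp14-/- follow in part from the rule, for members and for all lines. Its effect need not be equal in both sets. The Parp14+/+ + PJ34 library held an interval for 77.2% of members, beside 87.5% of all lines.

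**Figure D1:**
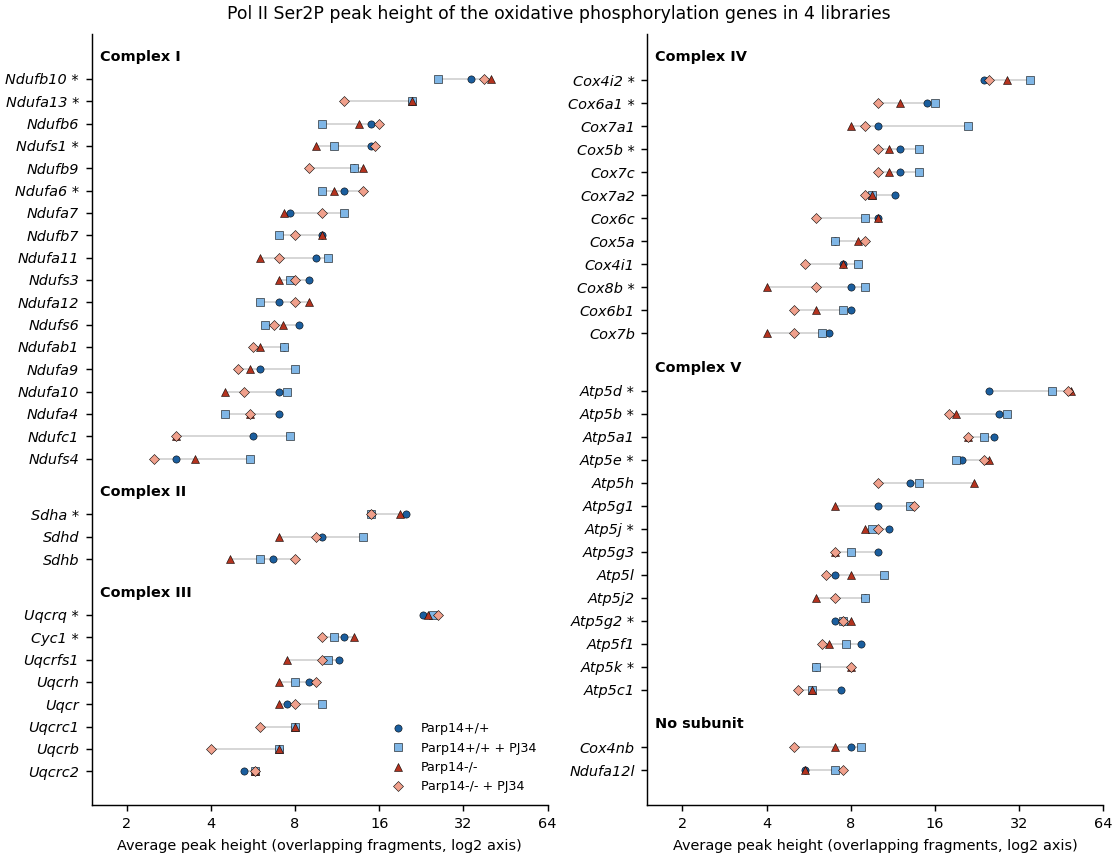
Average peak height (overlapping fragments, log2 axis) of the 57 members, by complex, with 1 point per library and a grey line from the lowest to the highest. Asterisks mark the 17 members that share all 4 values with a neighbouring line, and 44 of the 57 members stay between 4 and 16 in all libraries, while Ndufb10 and Atp5d reach 40 and 49.

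Much of the signal assigned to these genes lay outside them. The table marked an interval in 157 pairs of member and library. Active regions can reach beyond the stretch around a gene, and counting every interval that touches the regions of a line gave 168 pairs. Of these, the tallest interval had its highest point inside the gene in 33 (19.6%), against 32.3% over all lines. It lay farther than 2 kb from the gene and inside another gene in 46 (27.4%, beside 19.9% of all lines). It lay at most 2 kb past the end of the gene and in no other gene in 28 (16.7%, beside 12.3% of all lines), where polymerase phosphorylated at serine 2 is known to gather as transcripts end. Of the 57 members, 48 (84.2%) shared an active region with another line, against 77.0% of all lines, and 17 (29.8%; 27.3%) had the same 4 values as a neighbour.

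**Figure D2:**
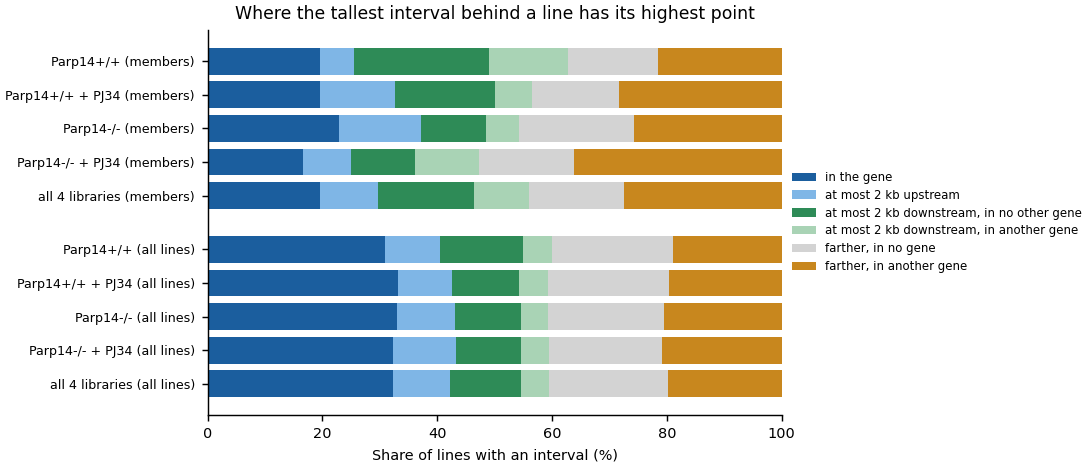
Share of lines with an interval in their active regions (%) by the place of the highest point of the tallest interval, for the 57 members and for all 7971 lines, in each library and pooled. The dark blue part, points inside the gene, is 19.6% for members and 32.3% for all lines over the 4 libraries.

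In complex I the 5 members with the highest mean height were Ndufb10, Ndufa13, Ndufb6, Ndufs1 and Ndufb9. Ndufb10, an accessory subunit of the membrane arm, had heights of 34 without and 26 with PJ34 in Parp14+/+ cells, and of 40 without and 38 with PJ34 in Parp14-/- cells. The lowest value was that of Parp14+/+ + PJ34. In every library the highest point lay 1923 bp past the end of the gene, inside Rps2, a ribosomal protein gene, and the 4 values are also those of the small nucleolar RNA gene Snora64, so they cannot be taken as values of Ndufb10.

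Ndufa13, an accessory subunit also known as GRIM-19, had 21, 21, 21 and 12 in that order of libraries, which is kept for all genes below. The first 3 libraries were equal and Parp14-/- + PJ34 was lower, with a treated genotype ratio, Parp14+/+ + PJ34 over Parp14-/- + PJ34, of 1.75 (0.822 to 3.90). Its highest points lay inside the gene or 744 bp upstream, and the line shares its values with Tssk6, which overlaps that start. Ndufs1, the largest iron-sulfur subunit of the NADH-oxidising arm, had 15, 11, 9.5 and 15.5. The genotype difference therefore turned from 1.58 (0.860 to 2.97) without PJ34 to 0.710 (0.392 to 1.27) with it, and both intervals include 1. Its values are those of Eef1b2, a translation elongation factor gene that starts opposite to it.

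Ndufb6, an accessory subunit, had 15, 10, 13.5 and 16, with the highest point 959 to 1015 bp past its end in Topors in all 4 libraries. Its treated genotype ratio of 0.625 (0.339 to 1.13) was the lowest of all members in that pair. Ndufb9 had 13, 13, 14 and 9. Ndufa6, which shares its values with 1500032L24Rik, had 12, 10, 11 and 14.

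Ndufc1, a small accessory subunit, had 5.67, 7.67, 3 and 3. Both Parp14+/+ libraries lay above both Parp14-/- libraries. The ratios were 1.89 (0.796 to 4.81) without PJ34 and 2.56 (1.14 to 6.28) with it, and the second interval excludes 1. Ndufc1 is a member only through its interval in Parp14+/+ + PJ34, the numerator of that ratio, so the ratio is a description. The interval was present in that library alone, with a highest point of 16 at 108 bp into the gene, and in no other gene. Ndufa10 had 7, 7.5, 4.5 and 5.25, and Ndufa11 had 9.5, 10.5, 6 and 7. Both were above 1.4 in both genotype pairs, at 1.56 and 1.43 for Ndufa10 and at 1.58 and 1.5 for Ndufa11, with intervals that include 1. In Ndufa11 the highest points lay 5120 to 20992 bp upstream, in or near Ranbp3, and the table marked an interval for it in Parp14+/+ + PJ34 alone.

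Of the other complex I subunits, Ndufs3, a core iron-sulfur arm subunit, had 9, 7.67, 7 and 8. In its own gene, 109 bp past the start, the interval of Parp14+/+ reached 15, and that of Parp14+/+ + PJ34 reached 12 at 77 bp. In Parp14-/- the tallest interval over the gene reached 5, at 6200 bp, and Parp14-/- + PJ34 had none over the gene. The height of the line averages over 3 regions, and this difference rests on single intervals. The other 8 subunits, Ndufa4, Ndufa7, Ndufa9, Ndufa12, Ndufab1, Ndufb7, Ndufs4 and Ndufs6, stayed between 2.5 and 12 in all libraries.

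Complex II, succinate dehydrogenase, was represented by Sdha, Sdhb and Sdhd. Sdha, the flavoprotein that binds succinate, had 20, 15, 19 and 15, the values of its neighbour Pdcd6, in which all 4 highest points lay. The PJ34-treated libraries were the lower ones in both genotypes. Sdhd, a membrane anchor, had 10, 14, 7 and 9.5, with ratios of 1.43 (0.686 to 3.06) and 1.47 (0.794 to 2.79) in the untreated and treated genotype pairs. Its highest points lay 47 to 527 bp upstream, on the side of Timm8b, which starts opposite to it. Sdhb, the iron-sulfur subunit, had 6.67, 6, 4.67 and 8, and its single interval, in Parp14+/+, peaked 957 bp past the end of the gene.

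In complex III, Uqcrq had nearly the same height in all libraries, at 23, 25, 24 and 26. Its highest points lay 3023 to 4623 bp past its end, outside genes, and the values are shared with Leap2 and Gdf9. Cyc1, the cytochrome c1 that reduces cytochrome c, had 12, 11, 13 and 10, shared with Sharpin. Uqcrfs1, the Rieske iron-sulfur protein, had 11.5, 10.5, 7.5 and 10, and the untreated Parp14-/- library was the lowest. Its ratio was 1.53 (0.766 to 3.16) without PJ34 and 1.05 (0.542 to 2.04) with it. Its highest point lay 2105 bp into the gene in Parp14-/- and 996 to 1092 bp past its end in the other libraries, in no other gene. Uqcrh, the hinge protein, had 9, 8, 7 and 9.5, and Uqcr had 7.5, 10, 7 and 8. The median ratio of the 8 genes was 1.00 without PJ34 and 1.08 with it.

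Complex IV holds several subunits with tissue forms, and the table listed both ubiquitous and restricted forms. Of the pair Cox4i1 and Cox4i2, Cox4i1 had 7.5, 8.5, 7.5 and 5.5. Cox4i2, a form known from lung and from low oxygen, had 24, 35, 29 and 25. All highest points of Cox4i2 lay inside Bcl2l1, the gene of the survival protein BCL-XL, 4812 to 14316 bp past the end of Cox4i2, and the values are those of Bcl2l1 and Id1. The height of the line therefore cannot be assigned to Cox4i2.

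Cox6a1, the widely expressed form of subunit 6a, had 15, 16, 12 and 10, with highest points in Gatc and values shared with Triap1. Cox6b1 had 8, 7.5, 6 and 5. Cox6a2 was not found by label or accession, and Cox6b2 was found by accession only, with 5, 5, 4 and 4 and no interval. In both listed members the Parp14+/+ libraries were higher than the Parp14-/- libraries at the same treatment, with intervals that include 1.

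Cox7a1, the heart and muscle form of subunit 7a, had 10, 21, 8 and 9, so that Parp14+/+ + PJ34 stood apart from the other 3. Its treated genotype ratio was 2.33 (1.02 to 5.79), while the untreated to treated ratio in Parp14+/+ cells reached 0.476 (0.200 to 1.06). The 21 of Parp14+/+ + PJ34 lay 2661 bp upstream of the gene. The tallest intervals that overlap the gene reached 10, 9, 8 and 9, a treated ratio of 1.00. None of them peaked inside the gene, and that of Parp14-/- peaked 2629 bp upstream, close to the place of the 21. Cox7a2, the widely expressed form, had 11.5, 9.5, 9.5 and 9, with highest points 139 to 235 bp into the gene in 3 libraries, and Cox7a2l, found with no interval, had 3, 4, 1 and 3.

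Cox8b, the muscle form of subunit 8, had 8, 9, 4 and 6, the values of Psmd13, a proteasome gene. Its ratio of 2.00 (0.536 to 9.08) was the highest of all members without PJ34, its treated ratio was 1.5 (0.477 to 5.12), and the only interval peaked 3023 bp upstream. Cox8a and Cox8c were not found by label or accession. Cox5b and Cox7c had the same set of values, 12, 14, 11 and 10, on different chromosomes. For Cox5b they are shared with Actr1b, while Cox7c shares them with no neighbour, and its highest points lay from 1 bp upstream to 1826 bp past its end.

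In the PJ34-treated genotype pair 11 of the 12 complex IV genes were above 1, with a median ratio of 1.45, and 6 were above 1.4. The interval excluded 1 for Cox7a1 alone. Among the 6, Cox6a1 had its highest points in Gatc, Cox7a1 had its Parp14+/+ + PJ34 point upstream, and Cox8b had no interval in a treated library. The presence rule favours ratios above 1, for these genes and for all lines, though not necessarily to the same degree. Over all 7971 lines 66.2% were above 1 in this pair, the median was 1.16 and 23.6% were above 1.4. Cox5a, at 0.778 (0.358 to 1.66), was the exception. When the libraries were scaled so that the median line had a ratio of 1, 10 of 12 were above 1, the median was 1.25 and 1 was above 1.4, beside 49.6% of all lines above 1 and 12.2% above 1.4. Without PJ34 the median of the 12 was 1.15, with 8 above 1, 2 below and 2 equal.

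In complex V, the ATP synthase, the untreated genotype ratios ran from 0.510 to 1.5. Atp5d, a subunit of the central stalk, had 25, 42, 49 and 48, with Parp14+/+ the lowest library and an untreated genotype ratio of 0.510 (0.302 to 0.842). In all 4 libraries the highest point lay 22037 to 22133 bp past the end of Atp5d, inside Cirbp, the gene of a cold-inducible RNA-binding protein, within a single active region that also gives Midn its values. The tallest interval that overlaps Atp5d itself reached 24 in Parp14+/+ and 13 in Parp14-/-, and with PJ34 it reached 12 in Parp14+/+ while Parp14-/- had none. Between the untreated intervals that overlap the gene the ratio was 1.85, the opposite direction, but no interval of any library peaked inside Atp5d.

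Atp5h, subunit d of the peripheral stalk, had 13, 14, 22 and 10, so the untreated Parp14-/- library stood above the other 3. The ratio was 0.591 (0.349 to 0.981) for Parp14+/+ to Parp14-/- and 2.20 (1.27 to 3.94) for Parp14-/- to Parp14-/- + PJ34, and both intervals exclude 1. These ratios share the Parp14-/- library. Its highest points of 20, 21, 38 and 16 lay 2066 to 2802 bp past the end of the gene, outside genes, and no interval overlapped the gene itself.

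Atp5b, the catalytic beta subunit, had 27, 29, 19 and 18, and both Parp14+/+ libraries lay above both Parp14-/- libraries. The ratios were 1.42 (0.761 to 2.70) and 1.61 (0.865 to 3.08). The highest points lay 621 to 813 bp past the end of the gene or 22 bp into it, in a stretch that Baz2a also covers, and the microRNA line Mirn677 inside the gene has the same values. Atp5a1, the alpha subunit, had 26, 24, 21 and 21, with highest points 857 to 1849 bp past its end and in no other gene. Its ratios of 1.24 (0.670 to 2.31) and 1.14 (0.610 to 2.16) were on the same side of 1 as those of Atp5b.

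Atp5e, the epsilon subunit, went the other way, with 20, 19, 25 and 24 and ratios of 0.80 (0.421 to 1.5) and 0.792 (0.410 to 1.51). Its highest points lay at the gene start, from 95 bp upstream to 97 bp inside, although Tubb1 and Slmo2 have the same values. Atp5j, coupling factor 6, had 11, 9.5, 9 and 10, with all highest points 170 to 810 bp into the gene, and shares its values with LOC100039950. Atp5k, subunit e, had 6, 6, 8 and 8, shared with Pde6b.

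Atp5g1, Atp5g2 and Atp5g3 encode the same mature c subunit of the membrane ring in separate genes. Atp5g1 had 10, 13, 7 and 13.5, Atp5g2 had 7, 7.5, 8 and 7.5, and Atp5g3 had 10, 8, 7 and 7. The values of Atp5g2 are also those of LOC100043600. Only Atp5g3 had both ratios above 1, at 1.43 (0.491 to 4.42) and 1.14 (0.362 to 3.70). The highest points of Atp5g2 and Atp5g3 lay 530 to 706 bp past their ends, whereas that of Atp5g1 lay in Ube2z.

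**Figure D3:**
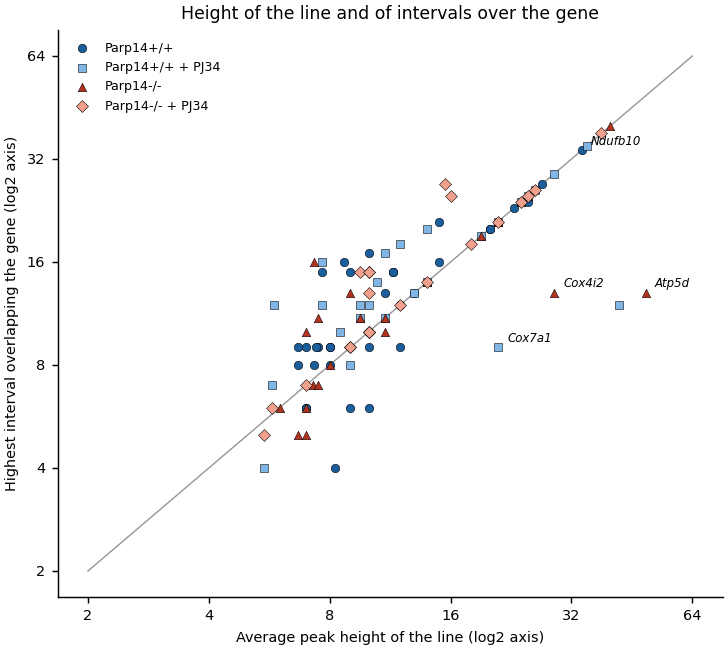
Average peak height of a member (horizontal, log2 axis) and height of the tallest interval that overlaps the gene in the same library (vertical, log2 axis), with the line of equality. Atp5d, Cox4i2 and Cox7a1 fall far below the line in some libraries, where the tallest interval did not overlap the gene. Points on the line can also peak outside the gene, as those of Ndufb10 do. Of the 57 members, 13 had no interval over the gene in any library.

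Across the genotype pair without PJ34 the members were, in the middle, slightly higher in Parp14+/+. The untreated genotype ratio had a median of 1.09, against 1.04 over all 7971 lines, with 35 members above 1, 15 below and 7 equal. A ratio above 1.4 was found in 13 members (22.8%), where 13.3% of all lines passed. Among the 13, Sdhb, Cox7b, Cox8b, Atp5g3 and Atp5j2 entered the members only through untreated Parp14+/+, the numerator of this ratio. The presence rule therefore favours this count. A ratio below 0.7 was found in 2 members (3.51%), Atp5d and Atp5h, where 9.07% of all lines passed. No member had a 95% interval wholly above 1, against 1.08% of all lines, and 2 members had one wholly below 1, against 1.94%. By complex the median was 1.10 in complex I, 1.43 in complex II, 1.00 in complex III, 1.15 in complex IV and 1.23 in complex V. In the treated pair these medians were 1.08, 1.00, 1.08, 1.45 and 1.13 in the same order. The 1.43 of complex II rests on 3 genes and did not recur with PJ34.

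With PJ34, 35 members were again above 1 (61.4%, beside 66.2% of all lines) and 19 were below (33.3%, beside 26.5% of all lines). The median of the treated genotype ratio was 1.20, against 1.16 over all lines, a shift of 0.21 on the log2 scale for all lines, so that members exceeded all lines by 0.05. They exceeded them by 0.07 in the untreated pair. A ratio above 1.4 was found in 18 members (31.6%, beside 23.6% of all lines) and a ratio below 0.7 in 2 (3.51%, beside 4.55% of all lines), Ndufb6 and Ndufb10. Among the 18, Ndufa9, Ndufa11, Ndufc1, Ndufs4 and Uqcrb entered the members only through Parp14+/+ + PJ34, the numerator here. The interval lay wholly above 1 for 2 members, Ndufc1 and Cox7a1, against 2.91% of all lines, and wholly below 1 for none, against 0.74%. With the libraries scaled to a median ratio of 1, the treated median of the members was 1.03 and the untreated 1.05. In the treated pair 6 members were then above 1.4 (10.5%, beside 12.2% of all lines) and 9 below 0.7 (15.8%, beside 11.1% of all lines), so the members were no longer above the background at 1.4, and the share of higher calls went from 90% to 40%. In the untreated pair 8 were above 1.4 (14%, beside 11.2% of all lines) and 2 below 0.7 (3.51%, beside 11.5% of all lines), a share of higher calls of 80% after 86.7%.

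The untreated and treated genotype pairs share no library. Above 1.4 in both were 6 members (10.5%), Ndufa10, Ndufa11, Ndufc1, Sdhd, Cox8b and Atp5b, where 4.3% of all lines were. The presence rule favours this direction, since it asks for an interval in the numerator of a ratio, and 3 of the 6 entered through 1 Parp14+/+ library, Ndufa11 and Ndufc1 through the treated and Cox8b through the untreated one. With no presence rule 6 of 77 subunit lines (7.79%) passed in both, beside 4.26% of all lines. With scaled libraries 1 member, Ndufc1, passed in both (1.75%, beside 2.41% of all lines). None was below 0.7 in both, and none passed opposite limits. A ratio above 1 in both pairs was found for 24 members (42.1%, beside 36.5% of all lines) and a ratio below 1 in both for 7 (12.3%, beside 13.6% of all lines). On opposite sides of 1 lay 16 (28.1%, beside 35.0% of all lines), and 10 equalled 1 in at least 1 pair.

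**Figure D4:**
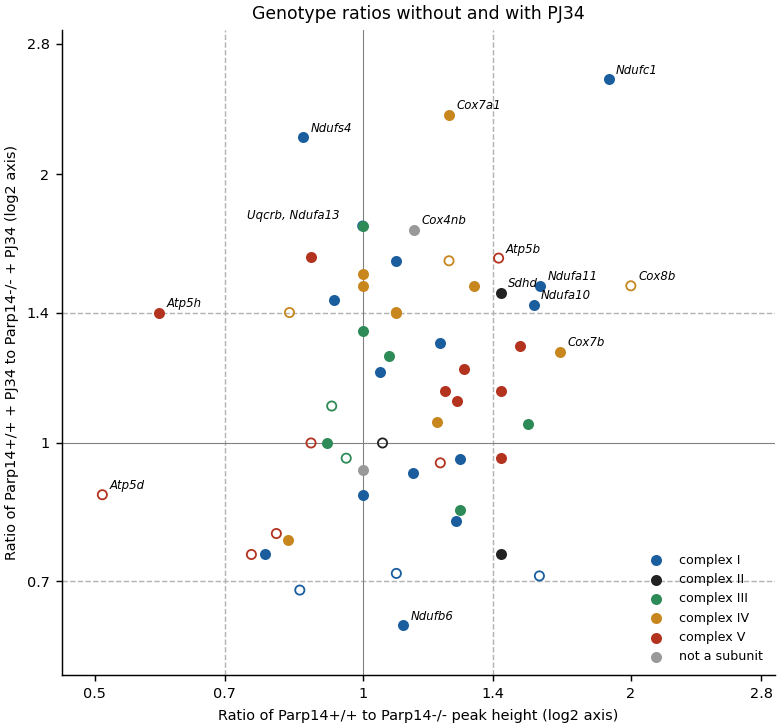
Parp14+/+ to Parp14-/- ratio without PJ34 (horizontal) and with PJ34 (vertical), both on log2 axes, 1 point per member, coloured by complex, with open points for members that share all 4 values with a neighbour. Dashed lines mark 0.7 and 1.4; the 6 members above 1.4 in both pairs sit in the upper right field and none in the lower left.

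PJ34 alone was compared within each genotype, and each of these pairs shares its libraries with the genotype pairs above. In Parp14+/+ cells the ratio of untreated to PJ34-treated heights had a median of 1.00 over the members, against 0.960 over all lines, with 24 members above 1 and 25 below. Above 1.4 were 3 members (5.26%, beside 6.95% of all lines) and below 0.7 were 6 (10.5%, beside 10.4% of all lines). The interval lay wholly below 1 for Atp5d alone, at 0.595, against 0.979% of all lines. In Parp14-/- cells the same ratio had a median of 1.04, against 1.08 over all lines, a shift of 0.12 on the log2 scale. Above 1.4 were 5 (8.77%, beside 14.4% of all lines) and below 0.7 were 4 (7.02%, beside 5.7% of all lines), and the interval lay wholly above 1 for Atp5h alone, against 1.32% of all lines.

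**Figure D5:**
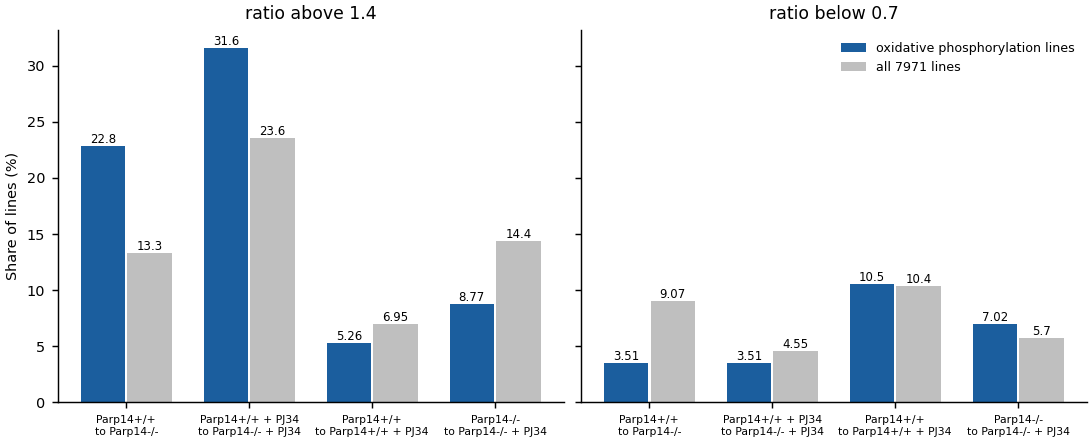
Share of lines (%) with a ratio above 1.4 (left) and below 0.7 (right) in the 4 pairs of libraries, for the 57 members (blue) and all 7971 lines under the same presence rule (grey). Libraries are not scaled here: members are above the background at 1.4 in both genotype pairs (22.8% against 13.3%, 31.6% against 23.6%), but not in the treated pair once libraries are scaled (10.5% against 12.2%). The presence rule asks for an interval in a Parp14+/+ library, the numerator of the genotype ratios, and so favours values above 1.4.

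The count of members depends on where the signal lay. Intervals that overlap the gene were present for 40 members in Parp14+/+ and 23 in Parp14-/-, and with PJ34 for 26 and 22. An overlapping interval can still peak in a neighbour. For Ndufb10 these intervals reached 34, 26, 40 and 38, the heights found in Rps2. Taking the tallest such interval as the value, 23 members had a value in both untreated libraries, with a median ratio of 1.24, beside 1.00 over the 4614 of all lines with both values. Of the 23, 7 were above 1.4 (30.4%, beside 16.9% of all lines) and 1 was below 0.7 (4.35%, beside 13% of all lines). In the treated pair 19 had a value in both, with a median of 1.14, beside 1.13 over 4353 lines. Of the 19, 4 were above 1.4 (21.1%, beside 23% of all lines) and 3 below 0.7 (15.8%, beside 9.37% of all lines). The intervals differ in which genes they cover in each library, so this set is small and selected.

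At the edge of the presence rule stood Ndufs4, a member through 1 interval, with heights of 3, 5.5, 3.5 and 2.5, and Ndufs7, outside the rule with no interval, at 8, 11.3, 7.67 and 7. In all, 20 members held an interval in only 1 of the Parp14+/+ libraries. Untreated Parp14+/+ held an interval for 87.7% of members, beside 89.2% of all lines. For Parp14+/+ + PJ34 the shares were 77.2% and 87.5%, so members passed through a single library more often. Matching transcript accessions found 22 more lines of subunits, 17 of them with no interval in the 4 libraries, and heights from 1 to 15. Among them Uqcr10 and Atp5md had a Parp14+/+ interval under other labels and Ndufb2 and Ndufv2 had one only in Parp14-/-. No interval lay on the mitochondrial chromosome, whose genes are not made by RNA Polymerase II.

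Genes that build and serve the complexes were read from the same table, in lists drawn up with earlier results of these data known. Of 7 assembly factors of complex I, 4 were found by name or accession and 3 had an interval, apart from Ndufaf2, the member labelled Ndufa12l. They included Ndufaf3 at 35, 21, 20 and 19 and Ndufaf4 at 8, 5.5, 8.5 and 11.5. The untreated Parp14+/+ library was the highest for Ndufaf3 and Parp14-/- + PJ34 for Ndufaf4. Ndufaf3 shares all its values with a neighbouring line.

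Of 13 assembly genes of complexes III and IV, 12 were listed and 8 had an interval. Their median ratio was 1.09 in the untreated and 1.14 in the treated genotype pair, with 1 above 1.4 and 3 below 0.7 in the first, where 13.3% and 9.07% of all lines passed, and 1 above and 1 below in the second, where 23.6% and 4.55% did. Sco1, a copper chaperone for complex IV, had 11, 15, 20 and 13, Cox15, which makes heme A, had 11, 10, 17 and 12, and Cox16 had 10, 15, 18 and 12. These 3 were highest in the untreated Parp14-/- library. Others were higher in untreated Parp14+/+ than in untreated Parp14-/- cells, with Bcs1l, a complex III assembly factor, at 10, 5, 6 and 7.5, Surf1, of complex IV assembly, at 35, 28, 26 and 30 and Cox11, a copper chaperone, at 6, 8.5, 5 and 3.5. The untreated genotype intervals of all these named genes include 1. Sco1, Cox15, Bcs1l and Surf1 share all values with a neighbouring line, so their heights cannot be assigned to them alone. In Parp14-/- cells 5 of the 8 were above 1.4 in the Parp14-/- to Parp14-/- + PJ34 ratio, where 14.4% of all lines passed. The median of the 8 was 1.42, beside 1.08 over all lines. The 5 were Sco1, Cox11, Cox15, Cox16 and Cox18, and the interval of each of these ratios includes 1. Cox18, at 49, 38, 44 and 29, also shares its values with a neighbouring line.

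Of the carriers of the inner membrane and cytochrome c, all 5 were listed with an interval. Slc25a5, an ADP/ATP carrier, had 34, 32, 32 and 36, Ucp2, an uncoupling protein, had 43, 39, 37 and 37, Cycs, cytochrome c, had 10.5, 9.5, 12.5 and 11, and Slc25a3, the phosphate carrier, had 12, 14, 19 and 12. The values of Ucp2 are also those of a neighbouring line. None of the 5 genes was above 1.4 in a genotype pair, and Slc25a3 was below 0.7 in the untreated pair. Of 13 regulators 9 were listed and 8 had an interval, with a median ratio of 0.946 untreated and 1.03 treated. Among these, Gabpa, a GABP subunit that starts opposite Atp5j, had 7.67, 9.33, 9.33 and 8, and Tfam, which packages mitochondrial DNA, had 5, 7.33, 5.33 and 4.67. The line matched to Nrf1 had 5, 8.17, 7.17 and 6.83 and no interval in Parp14+/+.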

How the data were processed

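RNA Polymerase II ChIP-Seq of 4 Th2 cell libraries, 1 per condition, was analysed together with the labels of an Input library, of which no value per gene was used. Per the study's methods the authors mapped 36-nt reads to mm9 with ELAND, removed duplicates, brought each library to equal numbers of alignments and called enriched intervals with SICER against Input. The deposited signal is a peak height, the largest number of overlapping fragments in an active region, which the authors averaged over the regions of each gene. The deposited tracks give each interval and its highest point. A further 8 columns of per-sample values belong to libraries not analysed here and were not used.

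Ratios were taken with no pseudocount, in Python 3.11.15 with numpy 2.4.6, scipy 1.17.1 and pandas 2.3.3, and limits of 1.4 and 0.7 were applied as in the study, without its further limits on height. The 95% intervals were exact binomial. The step was tested on simulated independent counts, which checks the calculation and not whether peak heights behave as such counts. A line's active regions were those touching the gene from 2.5 kb upstream to 5 kb downstream, which matched the number of regions in the table for 11604 of 11608 lines. For 21 members with 1 region, 63 of 69 heights equalled the tallest interval of the track. With equal depth, precision was set by height: no member reached a summed height of 50, and the highest was 49.

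Of 79 lines with a fitting label, 1 was an Ndufaf line and 21 had no Parp14+/+ interval. Of these 21, 19 carry a transcript accession known to RefSeq (GRCm38.p6, names only), which named another gene in 17, so labels without such an interval were not used. Among members 55 matched an accession and 3 carried a synonym or older name. Promoters came from NCBIM37, with GENCODE vM1 genes.

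Members and gene lists were chosen with earlier results of these data known. Named were the 5 members of each complex with the highest mean height, those whose interval excludes 1 or that pass a limit the same way in both genotype pairs, those sharing all values with a neighbour, and tissue or multi-copy forms. Markers and related genes were named from lists, and a few other members after their values had been seen. The values of some listed genes are not reported here. PJ34 was given at 10 uM per the labels, while the methods differ.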

Additional observations from a re-analysis of the deposited data

How the results depend on the processing

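The medians of both genotype ratios stayed above 1 in all alternatives tried. Those of untreated to PJ34-treated heights ranged from 1.00 to 1.07 in Parp14+/+ cells and from 0.966, with libraries scaled to a median ratio of 1, to 1.04 in Parp14-/- cells. Of 76 values of medians and counts under alternatives, 59 stayed within the error or within 1.5 times the count and 17 did not. The error of a median is here an interval taken over the member genes, 1 to 1.25 for the untreated genotype ratio. It covers the spread between genes, some of which share regions, and not the spread between replicate libraries. The 59 values therefore show stability to processing only, and replicate error was not tested. Scaling left 8 members above 1.4 without PJ34, and with PJ34 6 above 1.4 and 9 below 0.7. A pseudocount of 1 left 8 above 1.4 without PJ34. Keeping 1 line of each run of identical neighbours left 1 below 0.7 with PJ34. The tallest interval overlapping the gene gave 7 above 1.4 and 1 below 0.7 of 23 members without PJ34, and 4 above 1.4 of 19 with PJ34. For Atp5d, where these intervals peaked outside the gene, the ratio was reversed to 1.85. The cause was not tested, but fewer members enter several of these counts.

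Chosen after seeing the data, leaving out the 17 lines with shared values left 1 below 0.7 in either genotype pair. With no presence rule and 77 subunit lines, 6 were below 0.7 without PJ34 and 5 with it, beside 13.4% and 8.17% of all lines. The 16 members whose tallest intervals lay at the gene had a median of 1.26 without PJ34, with 5 above 1.4 and 0 below 0.7, and 3 and 0 with PJ34. Of all lines under the same condition 15.2% and 25.4% were above 1.4 in these pairs, and 10.3% and 5.87% were below 0.7. Of the 5, Sdhb, Cox7b and Atp5g3 entered the members only through untreated Parp14+/+. The 3 with PJ34, Ndufc1, Ndufs4 and Uqcrb, entered only through Parp14+/+ + PJ34. Those libraries are the numerators of the ratios, so these counts are descriptions.

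The limit of a summed height of 50 left no member. Of 270 values of single members 264 stayed within the interval. No paired analysis was possible because each condition has 1 library and so no replicate numbers to pair. The genotype ratios stand within each PJ34 status, and an additive fit of genotype and PJ34, which takes their interaction as error, was not run.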

Other observations

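Among the subunit lines found by accession only and outside the presence rule, Atp5o, the oligomycin sensitivity subunit of the ATP synthase, had heights of 4 without and 13 with PJ34 in Parp14+/+ cells, and of 9 without and 3 with PJ34 in Parp14-/- cells. Ndufa2 of complex I had 5, 15, 9 and 5 in that order. In both genes the Parp14+/+ + PJ34 library was the highest, and the treated genotype ratio was 4.33 (95% exact binomial interval 1.19 to 23.7) in Atp5o and 3.00 (1.04 to 10.6) in Ndufa2. Neither line had an enriched interval in any of the 4 libraries, and both were named after their values had been seen.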
